A study of Yarrowia lipolytica with 4 samples.

Results

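ALK1 to ALK10 are 10 genes of the oil-storing yeast Yarrowia lipolytica that encode cytochrome P450 enzymes of the CYP52 family. These enzymes sit in the endoplasmic reticulum and put a hydroxyl group on the end carbon of n-alkanes or fatty acids, with electrons passed on from NADPH by a reductase. The alcohols made in this way are oxidised to aldehydes and fatty acids, which are activated and then broken down by beta-oxidation in peroxisomes. The family is best known for its response to alkanes, on which this yeast can live, and ALK1 is annotated as n-alkane-inducible. The genes were chosen by a fixed list of 10 identifiers out of 8381 features measured in all 4 libraries. The list uses no measured value but was set with earlier results of these data known.

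Poly(A) RNA was sequenced from 2 strains in rich medium with glucose (YPD), taken at an OD600 of 0.8 at 28 °C. The parent is PO1f with the disruption ku70Δ::tc, which the labels call WT, and it had 2 libraries. The other strain is PO1f with ku70Δ::tc and sur2Δ::LEU2, called the mutant here and sur2 deletion in the plots, also with 2 libraries. PO1f is a laboratory strain without its own leucine and uracil synthesis, and KU70 encodes a protein that helps to join broken DNA ends. SUR2 encodes the C4-hydroxylase of sphingoid bases, and the study asked how its loss alters gene expression. The labels name no added alkane or fatty acid for either group, so the data give basal levels in glucose medium and the strain difference in that medium. Loss of SUR2 and gain of LEU2 cannot be told apart here, and the labels do not say how many clones were used or whether the 2 libraries of a strain came from separate cultures. P-values therefore measure only the spread between libraries, which may be technical.

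The deposited data were a transcript table and a gene table, each holding 1 library per strain, and a library is named here by its table and strain. Totals ran from 8765729 to 16698719 counts. SUR2 (YALI0_E17347g) had 1402 and 1319 reads in the parent libraries and 0 and 0 in the mutant libraries. Counts within a strain disagreed well beyond counting error (a chi-square of 144.8 per degree of freedom in the parent strain and 292.8 in the mutant), and each library was taken as 1 replicate. Whatever differed between the tables is part of that spread. Levels of different genes are compared by the authors' TPM (transcript abundance scaled for gene length and library size). Each library was scaled by itself, and the median TPM of protein-coding genes was 28.7 and 20 in the parent strain and 30.7 and 38.1 in the mutant, in the order transcript table, gene table that is used throughout. Strains are compared by CPM (counts scaled to library size) with TMM factors, which correct for library composition but not for length.

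The annotation deposited with the counts named 8 of the 10 genes directly as cytochrome P450 or as CYP52 family members. Of these, 4 are named as cytochrome P450 (ALK1, ALK2, ALK7 and ALK8) and 4 only as CYP52 family members (ALK3, ALK4, ALK5 and ALK6). ALK7 is named as both, and CYP52 is not named for ALK1, ALK2 and ALK8. ALK9 and ALK10 are annotated only as similar to ALK1 and to ALK2. The symbol ALK1 also stands in the annotation of YALI0_A00506g, where it is the Saccharomyces cerevisiae name of a DNA damage-responsive protein, so genes were matched by identifier.

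The 10 genes are scattered over 5 of the 6 chromosomes, with 5 on chromosome B, 2 on chromosome E, 1 each on A, C and F, and 0 on D. Coordinates are those of the deposited tables, whose genome build is not given in the sources used here. ALK4 (YALI0_B13816g, chromosome B, 1853647 to 1855206, plus strand) and ALK5 (YALI0_B13838g, chromosome B, 1857153 to 1858748, plus strand) are direct neighbours, 1946 bp apart and in the same direction. Gene models ran from 1542 bp in ALK3 and ALK10 to 1752 bp in ALK8, all multiples of 3, as are 89.4% of the protein-coding models. None of the 10 overlaps another annotated feature. The distance to the next protein-coding gene upstream was 7136 bp for ALK1 and 5736 bp for ALK9, and only 2.06% and 4.07% of protein-coding genes had a longer one. Over the 10 genes it exceeded the median of 1395 bp in 7. How reads of close relatives were assigned is unknown, since the counting tool is not given, and protein identity between members was not analysed here.

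In glucose medium every ALK gene lay below the median protein-coding gene in all 4 libraries. The highest place that any of them reached was the percentile 43.5 among protein-coding genes, by ALK3 in the transcript table's parent library, and ALK8 lay between the percentiles 1.81 and 2.91. The summed TPM of the family was 74.9 and 33.5 in the parent strain and 77.7 and 71.4 in the mutant, from 2957, 1233, 2933 and 1299 reads. These sums do not compare the strains, since the median protein-coding TPM within the gene table also differed, 20 against 38.1. ALK1, ALK3 and ALK4 together held 72.3% and 72% of the summed TPM in the parent strain and 75.5% and 61.8% in the mutant. ALK8, ALK9 and ALK10 together held 0.775% and 0.926%, and 1.18% and 1.28%. ALK1, ALK3 and ALK4 were the 3 highest of the family in every library but the gene table's mutant library, where ALK6 was second. ALK8, ALK9 and ALK10 had at most 21 reads in any library.

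**Figure D1:**
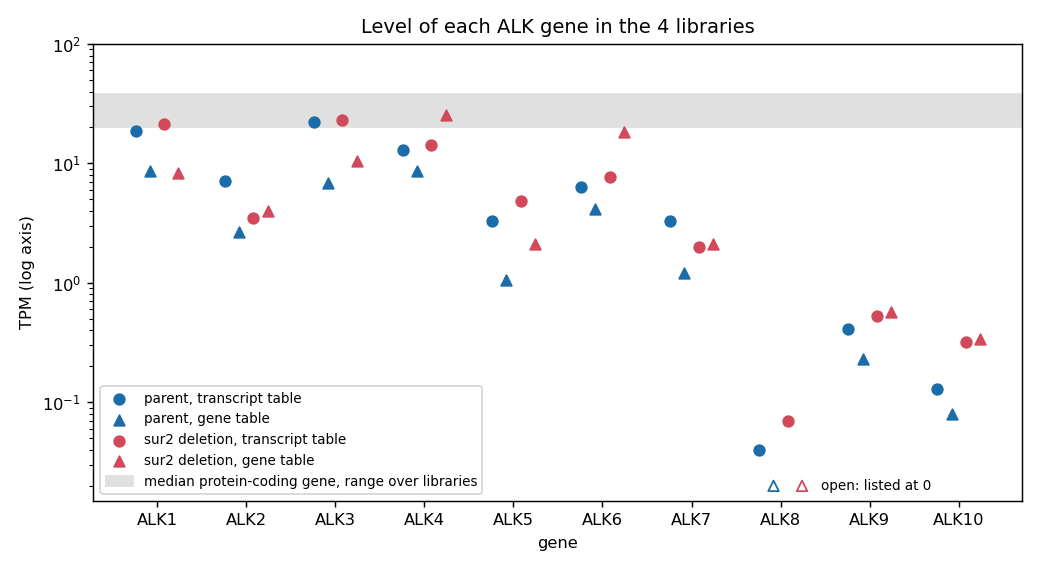
TPM (log axis) of each ALK gene in each library, 1 point per library, with circles for the transcript table and triangles for the gene table. The grey band spans the median TPM of protein-coding genes over the libraries (20 to 38.1). Each point lies below the median of its own library, and the 2 open symbols are ALK8 values listed at 0.

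By mean TPM in the parent the order was ALK3, ALK1, ALK4, ALK6, ALK2, ALK7, ALK5, ALK9, ALK10 and ALK8. Most neighbours in this order did not differ beyond the spread of the parent libraries. ALK3 and ALK1 overlapped, as did ALK1 and ALK4, ALK6 and ALK2, ALK2 and ALK7, and ALK7 and ALK5. The parent ranges of ALK4 and ALK6 did not overlap, nor did those of ALK5 and ALK9, of ALK9 and ALK10, or of ALK10 and ALK8. Compared within each library, ALK4 was above ALK6, ALK2 above ALK7, ALK5 above ALK9, ALK9 above ALK10 and ALK10 above ALK8 in all 4 libraries. The mutant ranges of ALK4 and ALK6 overlapped.

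Members known mainly for hydroxylating n-alkanes (ALK1, ALK2, ALK9 and ALK10) were spread over this order, from the second place to the last but one. ALK1 (YALI0_E25982g, chromosome E, 3083273 to 3084844, minus strand), the enzyme most needed for growth on short alkanes, was at 18.8 and 8.65 TPM in the parent strain and 21.3 and 8.37 TPM in the mutant. In TPM, ALK1 was thus closer within a table than within a strain, and the groups overlapped. In CPM its ratio of mutant to parent was 1.08 within the transcript table but 0.578 within the gene table. The latter is about as far from equal as the 2 parent libraries were, at 0.62 (gene over transcript table). ALK2 (YALI0_F01320g, chromosome F, 211644 to 213215, minus strand), which acts beside ALK1 on longer alkanes, was at 7.15 and 2.65 TPM in the parent strain and 3.48 and 4 TPM in the mutant.

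ALK9 (YALI0_B06248g, chromosome B, 828485 to 830122, plus strand) had 17 and 9 reads in the parent strain and 21 and 11 in the mutant, or 0.41, 0.23, 0.53 and 0.57 TPM. ALK10 (YALI0_B20702g, chromosome B, 2725650 to 2727191, minus strand) had 5 and 3 reads in the parent strain and 12 and 6 in the mutant, or 0.13, 0.08, 0.32 and 0.34 TPM. For both genes the mutant libraries were the higher ones and the groups did not overlap, but the counts are small. The exact 95% Poisson intervals of the ALK10 counts were 1.62 to 11.7 and 0.619 to 8.77 in the parent strain and 6.2 to 21 and 2.2 to 13.1 in the mutant, and they cover counting error only. Each gene stands far under its annotated relative. The TPM of ALK1 was 45.9 and 37.6 times that of ALK9 in the parent strain and 40.1 and 14.7 times in the mutant. That of ALK2 was 55 and 33.1 times, and 10.9 and 11.8 times, that of ALK10.

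ALK3 (YALI0_E23474g, chromosome E, 2759468 to 2761009, plus strand) and ALK6 (YALI0_B01848g, chromosome B, 279835 to 281415, plus strand) encode enzymes known to act on both n-alkanes and fatty acids. ALK3 was at 22.4 and 6.88 TPM in the parent strain and 23 and 10.4 TPM in the mutant, the highest of the family in both libraries of the transcript table and the third in both of the gene table. ALK6 was at 6.4 and 4.13 TPM in the parent strain and 7.77 and 18.2 TPM in the mutant. The value of its gene table mutant library stands above the other 3.

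ALK4, ALK5 and ALK7 encode enzymes known mainly for hydroxylating the end of fatty acids. ALK4 was at 12.9 and 8.59 TPM in the parent strain and 14.4 and 25.3 TPM in the mutant, and in the gene table mutant library it was the highest of the 10. Its neighbour ALK5 was at 3.31 and 1.06 TPM in the parent strain and 4.84 and 2.1 TPM in the mutant. The adjacent genes were read at unequal levels, ALK4 at 3.89 and 8.1 times the TPM of ALK5 in the parent strain and at 2.98 and 12 times in the mutant. ALK7 (YALI0_A15488g, chromosome A, 1592321 to 1593901, plus strand) was at 3.3 and 1.21 TPM in the parent strain and 1.99 and 2.12 TPM in the mutant, with the transcript table's parent library above the other 3.

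ALK8 (YALI0_C12122g, chromosome C, 1680350 to 1682101, minus strand), whose enzyme showed little or no activity on these substrates, was barely read. It had 2 and 0 reads in the parent strain and 3 and 0 in the mutant. A count of 0 allows up to 3 counts, which is 0.254 CPM in the gene table's parent library and 0.307 CPM in its mutant library. All 4 libraries were at or under this floor, so no fold is given for ALK8.

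**Figure D2:**
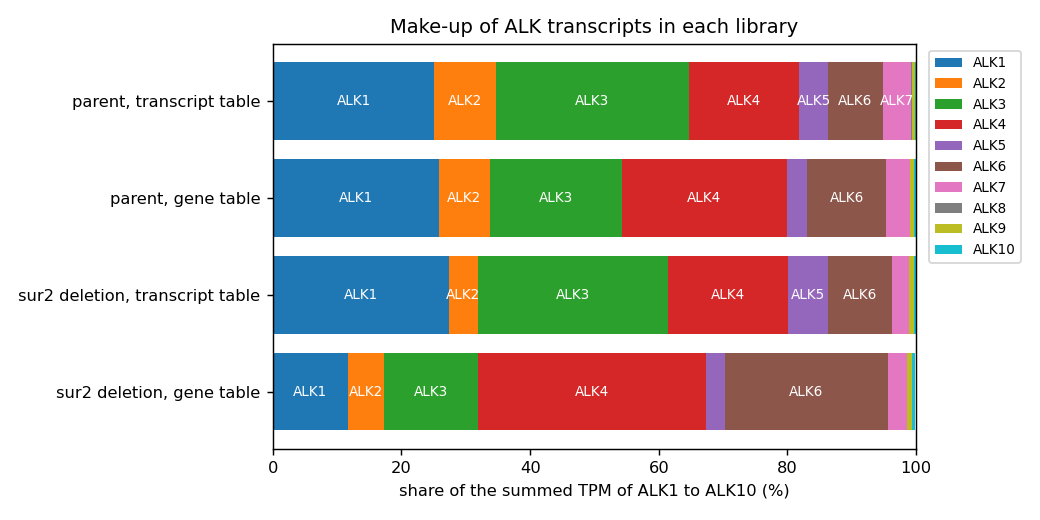
Share of each gene in the summed TPM of ALK1 to ALK10, in percent, 1 bar per library. ALK4 and ALK6 make up 35.4% and 25.4% in the gene table mutant library, against 17.2% to 25.7% and 8.55% to 12.3% in the other 3 libraries.

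The make-up of the family stood apart in the gene table's mutant library. There ALK1 held 11.7% of the summed TPM, against 25.1%, 25.8% and 27.4% in the parent libraries and the transcript table's mutant library. ALK3 held 14.6%, against 30%, 20.5% and 29.6%. ALK6 held 25.4%, against 8.55%, 12.3% and 10%. Grouped by known substrate, the alkane enzymes (ALK1, ALK2, ALK9 and ALK10) held 35.4%, 34.7% and 33% in those 3 libraries and 18.6% in the remaining one. The fatty acid enzymes (ALK4, ALK5 and ALK7) held 26%, 32.4% and 27.4%, and 41.4%. In that last library ALK4 alone held 35.4%, while ALK5 held 2.94% and ALK7 2.97%. ALK5 held 4.42%, 3.17% and 6.23% in the others, and ALK7 4.41%, 3.61% and 2.56%. The higher share of this group is therefore that of ALK4. ALK3 and ALK6, which act on both, held 38.5%, 32.9% and 39.6%, and 40%. With 1 library showing it, this difference is not shared by both mutant libraries, and it was not tested.

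The comparison of the strains asks whether replacing SUR2 alters basal ALK transcript levels. None of the ALK genes passed it. Of the 10 genes 9 had enough reads to be tested and edgeR's quasi-likelihood test called 0 of those 9 at a Benjamini-Hochberg adjusted p of 0.05, against 1.24% of all 6051 genes tested. At an unadjusted p under 0.05 edgeR gave 0 of the 9 and 752 of all genes (12.4%). Log2 fold changes (mutant over parent) ran from -0.71 to 1.24, with 5 above and 4 below 0 and a median of 0.41, against 0.03 over all tested genes. The adjusted p ran from 0.529 to 0.983 (edgeR). In RNA of a whole culture, fewer expressing cells and less RNA per cell cannot be told apart.

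Among the alkane enzymes, ALK1 was at 43.6 and 27.1 CPM in the parent strain and 47.2 and 15.7 CPM in the mutant. Its log2 fold change was -0.17 ± 0.55 (SE, 95% interval -1.43 to 1.10, adjusted p = 0.954, edgeR). ALK2 was at 16.6 and 8.29 CPM in the parent strain and 7.71 and 7.47 CPM in the mutant, with both mutant libraries under both parent libraries. At -0.71 ± 0.55 the log2 fold change did not pass (interval -1.98 to 0.55, adjusted p = 0.691, edgeR). For ALK9 the log2 fold change was 0.42 ± 0.73 (interval -1.26 to 2.09). ALK10 had the largest fold change of the family, 1.24 ± 0.85, and also the widest interval, -0.72 to 3.20 (adjusted p = 0.64, edgeR). Its ratio was 2.4 within the transcript table and 2.42 within the gene table.

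ALK6 was the member of smallest p. It was at 14.9 and 13 CPM in the parent strain and 17.3 and 34.2 CPM in the mutant, a log2 fold change of 0.88 ± 0.48 (interval -0.22 to 1.98, adjusted p = 0.529, edgeR). Its ratio was 1.16 within the transcript table and 2.62 within the gene table. Without the gene table's mutant library the log2 fold change of ALK6 was 0.31. ALK3, at 50.9 and 21.1 CPM in the parent strain and 49.9 and 19 CPM in the mutant, had a log2 change of -0.06 ± 0.58 (interval -1.39 to 1.27). The parent libraries of ALK3 lay farther from each other than either lay from the mutant library of its own table.

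ALK4 was at 29.6 and 26.6 CPM in the parent strain and 31.7 and 46.9 CPM in the mutant. Its log2 fold change was 0.48 ± 0.38 (interval -0.40 to 1.36, adjusted p = 0.702, edgeR), the most precise of the family, and its bounds are folds of 0.76 and 2.57. ALK5 was at 7.82 and 3.38 CPM in the parent strain and 10.9 and 3.99 CPM in the mutant, and its log2 fold change was 0.41 ± 0.71 (interval -1.21 to 2.04). ALK7 was at 7.7 and 3.81 CPM in the parent strain and 4.44 and 3.99 CPM in the mutant, and its log2 fold change was -0.45 ± 0.62 (interval -1.88 to 0.98). All 9 intervals include 0, and each reaches a fold of 2.57 or more, or of 0.381 or less. The test therefore does not show that the strains have equal ALK levels.

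**Figure D3:**
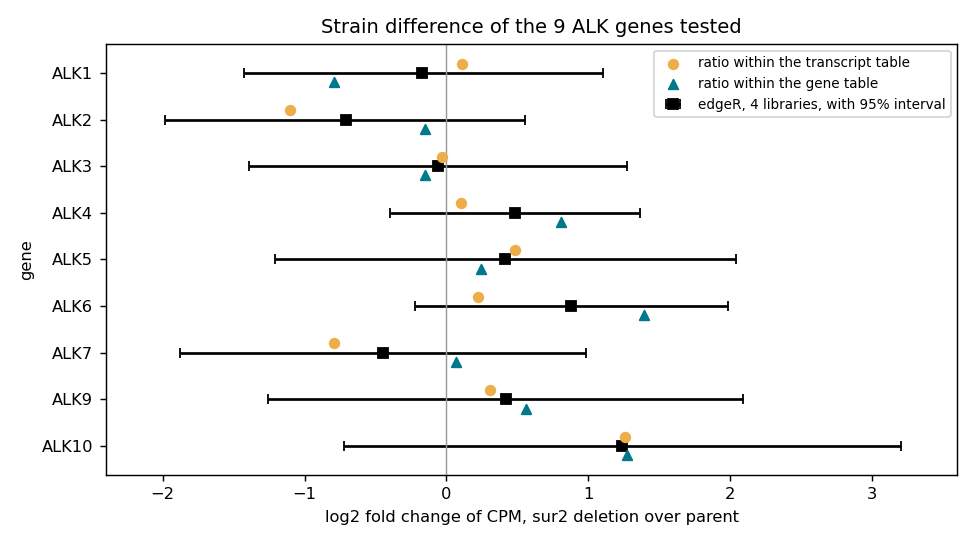
Log2 fold change of CPM, mutant over parent, for the 9 ALK genes tested. Squares with bars are edgeR's estimates from 4 libraries with 95% intervals, circles are the ratio within the transcript table and triangles the ratio within the gene table. Every bar crosses 0, and the ratios of ALK1 and ALK7 have opposite signs in the 2 tables.

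The mutant libraries lay above both parent libraries for 4 of the 9 tested members (ALK4, ALK6, ALK9 and ALK10), as they did for 22.1% of all tested genes. They lay below both for 1 (ALK2), against 20.2% of all tested genes. The other 4 overlapped. In both tables, taken singly, 6 of the 9 members were higher in the mutant library, with a median log2 ratio of 0.11 for the transcript table and 0.24 for the gene table. Over all tested genes these medians were -0.01 and 0.04.

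In 5 of the 9 tested members the parent libraries differed by more, in log2 CPM, than the estimated strain log2 fold change. A difference of single libraries varies more than an estimate from all libraries. The share over all tested genes was not computed, so this count is not read as a trait of the members. In the parent the log2 ratio of the gene table's library to the transcript table's had a median of -0.69 over the 9 tested members, against -0.04 over all tested genes, and it was below 0 for all 9. In the mutant the median was -0.15, against -0.03 over all tested genes, and 7 of the 9 were below 0. ALK3 was at 0.414 times the transcript table's CPM in the gene table's parent library and at 0.382 times in its mutant library. For ALK5 the values were 0.433 and 0.365, and for ALK1 0.62 and 0.332. ALK2 and ALK7 stood at 0.5 and 0.494 in the parent but at 0.969 and 0.899 in the mutant. ALK4 and ALK6 stood at 0.901 and 0.872 in the parent strain and at 1.48 and 1.97 in the mutant. All 9 were thus lower in the gene table's parent library, and only ALK4 and ALK6 were higher in its mutant library. Each ratio is of single libraries, so whether the members vary together was not tested. What the tables differ in is not given in the labels.

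The pattern of ALK3, the member of highest mean TPM, was closest to those of a reverse transcriptase gene (YALI0_D05973g), a gene with weak similarity to TID3 (YALI0_B11814g) and one with similarity to the zinc-finger protein gene CRZ1 (YALI0_D01463g). Likeness was the root mean square difference of log2 CPM centred per gene over the 4 libraries. It was taken among 5157 genes with a mean of at least 10 CPM, which leaves out ALK5 and ALK7 to ALK10. The 3 genes named were the nearest described, at 0.116, 0.12 and 0.129. ALK1, the nearest member compared, was at 0.252 from ALK3, the 23rd nearest gene. ALK2, ALK4 and ALK6 were at 0.555, 0.842 and 1.02 from ALK3. For ALK6, the nearest described genes were those of 6-phosphofructokinase (YALI0_D16357g, 0.0527), of a protein similar to the syntaxin-related SSO1 (YALI0_E23243g, 0.0571) and of one similar to the mitochondrial aldehyde dehydrogenase ALD5 (YALI0_F04444g, 0.0574). ALK4, the nearest member compared, was at 0.227 from ALK6, with 169 as its place among the genes compared. ALK2, ALK3 and ALK1 were at 0.85, 1.02 and 1.09 from ALK6. Over 4 libraries, some other genes lay closer to ALK3 and to ALK6 than the nearest member compared. Of the members only ALK1, ALK2, ALK3, ALK4 and ALK6 were among the 5157 genes. The nearest of so many genes can be closer for that reason alone. Whether members are more or less alike than other genes was not tested.

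None of the members was called under any of 11 other settings either, but with either parent library left out edgeR called 0 of all genes, so those settings could call none. The share of all genes called was 6.18% with DESeq2, 2.4% with the deposited table as a term in edgeR, and 11.2% in edgeR without the transcript table's mutant library. In that last setting, ALK6 had an adjusted p of 0.108, the smallest of any member in any setting, in a range over its alternatives of 0.108 to 0.994. ALK2, ALK4, ALK6, ALK9 and ALK10 kept the sign of their log2 fold change in each setting that could test them, whereas ALK1, ALK3, ALK5 and ALK7 took either sign.

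**Figure D4:**
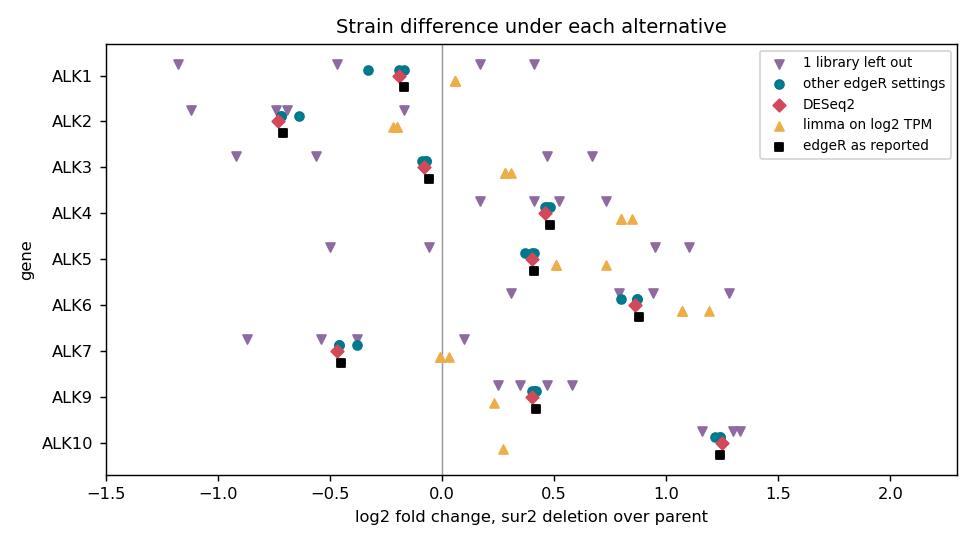
Log2 fold change of each tested ALK gene, mutant over parent, under each alternative, 1 point per setting. Leaving out 1 library took ALK1 from -1.18 to 0.41, and limma on log2(TPM + 1) without a filter took ALK10 from 1.24 to 0.27. ALK10 was at 0.08 to 0.34 TPM, where adding 1 compresses the ratio, so these 2 values are not the same measure.

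Genes around the family in the same pathway came from a list set by identifier and annotation. In edgeR 0 of the 32 tested, made up of 4 other cytochrome P450 genes and 28 genes of the pathway, passed in either direction, against 1.24% of all genes. At an unadjusted p under 0.05 there were 6 of the 32, against 12.4% of all genes. The median log2 fold change was 0.02. The NADPH-cytochrome P450 reductase gene (YALI0_D04422g), which is shared by all P450 enzymes of the endoplasmic reticulum and is named here for its role, was at 91.6 and 68.9 TPM in the parent strain and 91.3 and 157 TPM in the mutant. Its single transcript thus exceeded the summed TPM of all 10 ALK genes, 1.22-fold and 2.06-fold in the parent strain and 1.18-fold and 2.19-fold in the mutant. YAS1 (YALI0_C02387g), annotated as a transcription factor essential for P450 induction by alkanes and also named for its role, had 102 and 20 reads in the parent strain and 40 and 13 in the mutant. Its log2 fold change was -1.05 ± 0.79 (adjusted p = 0.686, edgeR).

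The 4 other P450 genes listed ran from 0.22 to 753 TPM over the libraries, and ALK1 to ALK10 from 0 to 25.3 TPM. They were found by annotation phrase or identifier, so P450 genes annotated in other words may be missing. YALI0_C10054g and YALI0_A20130g, annotated as similar to ALK2 and to ALK3, were as low as ALK9, at 0.33, 0.49, 0.69 and 0.38 TPM and at 0.35, 0.22, 0.45 and 0.77 TPM. The sterol 14-alpha demethylase gene YALI0_B05126g, whose P450 enzyme serves ergosterol synthesis, was at 80 and 113 TPM in the parent strain and 192 and 74.5 TPM in the mutant, with a log2 fold change of 0.07 ± 0.59. YALI0_B21824g, with weak similarity to a cytochrome P450 monooxygenase of Aspergillus parasiticus, had 32667 and 11158 reads in the parent strain and 3482 and 36 in the mutant. Its mutant libraries lay below both parent libraries, with a log2 fold change of -3.78 ± 1.40 that did not pass (adjusted p = 0.301, edgeR). It passed in 5 of 11 alternatives, among them limma on log2(TPM + 1) (adjusted p = 0.012) and edgeR with the table as a term (0.0476), in a range of 5.26e-19 to 0.847. Without the transcript table's mutant library its log2 fold change was -8.60, and without the gene table's it was -2.81.

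Of the pathway genes, the 4 of smallest p were alcohol dehydrogenase 2 (YALI0_E17787g), the acyl-CoA oxidase POX5 (YALI0_C23859g), cytochrome b5 (YALI0_D12122g) and YALI0_F23793g, similar to Saccharomyces cerevisiae YMR110c. Alcohol dehydrogenase 2 was at 500 and 425 CPM in the parent strain and 86.3 and 167 CPM in the mutant (log2 fold change -1.87 ± 0.46, adjusted p = 0.125, edgeR). POX5, which catalyses the first step of beta-oxidation, was at 80.4 and 50.8 CPM in the parent strain and 19.5 and 27.3 CPM in the mutant (log2 fold change -1.49 ± 0.41, adjusted p = 0.172, edgeR). For both genes the groups did not overlap. Both were called by DESeq2 (adjusted p = 0.00113 and 0.0281), and their alternatives spanned adjusted p of 0.00113 to 0.788 and 0.0281 to 0.731. Without the transcript table's mutant library 6 of the 32 genes passed in edgeR, against 11.2% of all genes, among them cytochrome b5 (adjusted p = 0.0367) and YALI0_F23793g (0.0147), and without the gene table's 3 passed, against 3.34% of all genes, among them alcohol dehydrogenase 2 (0.0019) and POX5 (0.0312). Cytochrome b5, a small electron carrier that can assist P450 enzymes, had a log2 change of -1.09 ± 0.40, and YALI0_F23793g had one of 1.18 ± 0.46 (adjusted p = 0.301 and 0.334, edgeR).

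The tables also gave different pictures of the pathway. Of the 28 pathway genes 4 were higher in the mutant library within the transcript table and 18 within the gene table, with median log2 ratios of -0.55 and 0.34. For the 8 beta-oxidation genes these medians were -0.60 and 1.12.

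**Figure D5:**
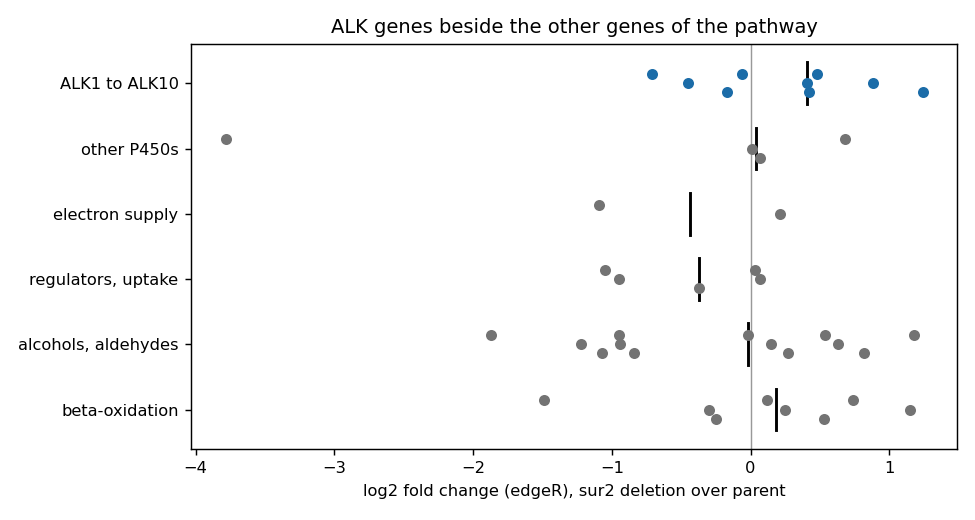
Log2 fold change (edgeR, mutant over parent) of the 9 tested ALK genes (blue) and of the 32 other genes (grey), 1 point per gene, with a bar at each list's median. Points are offset vertically only to separate them. The ALK genes lie between -0.71 and 1.24, and the lowest point is YALI0_B21824g at -3.78.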

How the data were processed

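Read counts per gene or transcript were deposited by the authors as whole numbers, per the file headers. The authors also deposited TPM, scaled for length and library size, per the file headers. Which aligner, counter, strand setting, genome build and annotation were used is not given in the sources used here. Libraries were made with a stranded mRNA kit, per the labels' protocols. The tables were joined by identifier (8381 features, 1 feature not used here). Column names give the strain but no replicate number.

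The count test was the quasi-likelihood test of edgeR 4.0.16, run in R 4.3.3 (genes kept by filterByExpr, TMM factors, a single strain term, two-sided, Benjamini-Hochberg over all 6051 genes tested, threshold 0.05). Standard errors are fold change over the root of F, and intervals are at 95%. The step was tested on simulated data. Alternatives were DESeq2 1.42.0, limma 3.58.1 on log2 TPM, RLE factors, no filter, the table as a term and each library left out. Where 1 library is left, it is assumed to vary like the other strain's pair.

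The members and lists were chosen with earlier results of these data known. All members are named. Of the other P450s and the pathway list the rule names genes past the threshold and the 4 of smallest p, and 3 nearest described genes for 2 members. From phrase matches, 2 genes were removed (a transcription factor among the P450s and cytochrome b560).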

Additional observations from a re-analysis of the deposited data

How the results depend on the processing

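The count of ALK genes past the threshold was 0 in all 11 alternatives, and 0 of all genes were called when either parent library was left out, with 414 and 361 genes at an unadjusted p under 0.05. Of 94 log2 fold changes of single members under alternatives, 80 kept their sign and 14 did not, and 0 passed. With limma on log2(TPM + 1), with or without the filter on TPM, ALK1 was at 0.06 and ALK3 at 0.28. With a pseudocount of 0.1 ALK1 was at 0.06, ALK3 at 0.31 and ALK7 at 0.03. For limma the TPM were not scaled further between libraries. The median TPM of protein-coding genes was 28.7 and 20 in the parent strain and 30.7 and 38.1 in the mutant. The limma values hold this general difference too, so their changes of sign are not particular to the members. The signs of ALK1 and ALK3 turned without the transcript table's parent library or the gene table's mutant library, that of ALK5 without the other 2 and that of ALK7 without the transcript table's parent library. Over the 4 fits with 1 library left out ALK1 ran from -1.18 to 0.41, ALK3 from -0.92 to 0.67, ALK5 from -0.50 to 1.10 and ALK7 from -0.87 to 0.10. The count of the 32 other genes past the threshold was 0 as reported (1.24% of all genes called), 2 with DESeq2 (6.18%), 1 with limma on log2(TPM + 1) (3.33%), 1 with a pseudocount of 0.1 (3.6%) and 1 when the table was a term (2.4%). It ran from 0 to 6 with 1 library left out, where 0% to 11.2% of all genes were called, and the cause was not tested. The order of the 10 members in the parent was the same with CPM per kilobase as with TPM. No paired analysis was possible by the labels' replicate numbers because the columns carry none. The table itself pairs 1 library of each strain, and as a term in edgeR it raised the calls over all genes from 75 to 145, with 0 members called. Depth limits ALK8, ALK9 and ALK10, with at most 21 reads a library.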
